A study of Mus musculus with 7 samples.

Results

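Regions of open chromatin that lay in gene deserts and were called in every library of the series are described here. They were chosen from the deposited peak calls: overlapping or touching peaks of the 7 lists were joined into 344401 regions, and a member had to be called in all 7 libraries, be shorter than 5000 bp and have its midpoint more than 100 kb from the body of every protein-coding gene on mm10. That gave 1496 members, which were 4.93% of the 30352 regions beyond 100 kb from genes and 3.47% of the 43170 regions called in all 7 libraries. The calls and positions chose the members, so being open in every group is a property of the set and not a result. ATAC-seq, in which a transposase cuts and tags accessible DNA, had been run on RAW264.7 cells, macrophage-like cells of a mouse line whose members can become bone-resorbing osteoclasts. The groups were untreated cells (2 libraries), cells given 50 ng/ml of RANKL, a TNF-family cytokine that sets off osteoclast formation (2 libraries), cells given RANKL at 50 ng/ml with the BET inhibitor I-BET at 500 nM (2 libraries), and cells given I-BET at 500 nM without RANKL (1 library, numbered replicate 2). Treatment lasted 4 h, and all groups are the same cell line with no genetic change stated. Whether replicates came from separate cultures is not stated, so p-values measure only the spread between these libraries, which may be technical, and the labelled source tissue (bone marrow) differs from the cell line name.

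A gene desert is a long stretch of genome with no protein-coding gene. Open sites in such stretches are often enhancers, which act over long distances through loops of chromatin, or sites where architectural proteins bind, or promoters of long non-coding RNAs (lncRNAs). BET proteins such as Brd2 bind acetylated histones at active enhancers, and I-BET displaces them. In macrophages the pioneer factor PU.1, encoded by Spi1, opens much of the enhancer repertoire together with AP-1, a dimer of Jun and Fos family proteins.

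The lists held 117175 to 166369 peaks per library, and read depth is not given in the sources used here. In untreated replicate 1, 42.9% of the regions it called were called nowhere else, against 8.95% to 27.1% in the other 6 libraries. All 14 macrophage marker genes searched had a region called in all 7 libraries within 1 kb of a gene end, including Spi1, Csf1r and Adgre1, against 2 of 7 B lymphocyte, 3 of 7 T lymphocyte, 1 of 8 fibroblast and osteoblast, and 2 of 8 erythroid and granulocyte markers.

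Some members lay over the start of an lncRNA, and these starts are the member DNA whose sequence could be shown. RefSeq promoter windows (GRCm38.p6, 250 bases before to 50 after a gene's start) overlapped 66 members (4.41%), and all 71 genes concerned were lncRNAs. Of these genes, 58 had a window wholly inside a member. The AP-1 motif TGANTCA, searched on both strands, was in 11 of the 58 windows (19%), against 7.81% of all 32851 windows and 9.46% of the 9462 lncRNA windows outside members. The PU.1 motif GAGGAAGT was in 8 (13.8%), against 3.2% of all windows and 3.43% of the other lncRNA windows. The E-box CACGTG was in 10.3% (7.15% of all windows and 6.01% of the other lncRNA windows), the Runx motif TGTGGTTT in 5.17% (1.78% and 2.17%) and the CRE TGACGTCA in 0 of 58 windows (1.79% and 1.03%). A loose NF-kB pattern (GGG and CC on either side of any 5 bases) was in 43.1%, below the 50.8% of all windows and above the 39.3% of the other lncRNA windows. A match describes the letters only and shows no binding. The 4 strongest members with an AP-1 or PU.1 match in such a window are shown, with Morrbid, the 1 window of the 58 that held both motifs. Capitals mark the matches, on either strand, each line reads 5′ to 3′ in the direction of the lncRNA, and the windows were picked after the values had been seen.

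4930471E19Rik, chr10:120636058-120636357, minus strand: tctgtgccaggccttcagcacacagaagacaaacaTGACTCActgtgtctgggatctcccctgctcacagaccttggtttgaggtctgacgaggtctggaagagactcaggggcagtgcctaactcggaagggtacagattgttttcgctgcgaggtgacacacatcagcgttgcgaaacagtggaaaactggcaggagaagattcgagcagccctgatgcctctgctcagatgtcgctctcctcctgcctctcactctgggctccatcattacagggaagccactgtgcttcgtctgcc
LOC115487176, chr9:61013180-61013479, plus strand: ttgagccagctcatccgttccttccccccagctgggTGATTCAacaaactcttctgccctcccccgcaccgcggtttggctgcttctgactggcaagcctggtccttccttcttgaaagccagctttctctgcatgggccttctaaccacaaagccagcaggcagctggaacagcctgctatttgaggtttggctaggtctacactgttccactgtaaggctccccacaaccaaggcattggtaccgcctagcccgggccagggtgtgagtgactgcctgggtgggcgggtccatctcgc
Gm12708, chr4:95193054-95193353, plus strand: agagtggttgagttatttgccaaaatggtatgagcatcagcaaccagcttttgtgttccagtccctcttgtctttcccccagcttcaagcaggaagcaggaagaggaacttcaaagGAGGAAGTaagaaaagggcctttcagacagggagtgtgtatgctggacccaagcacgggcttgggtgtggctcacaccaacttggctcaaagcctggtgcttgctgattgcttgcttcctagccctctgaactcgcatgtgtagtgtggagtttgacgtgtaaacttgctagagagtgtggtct
Gm19510, chr15:59794910-59795209, minus strand: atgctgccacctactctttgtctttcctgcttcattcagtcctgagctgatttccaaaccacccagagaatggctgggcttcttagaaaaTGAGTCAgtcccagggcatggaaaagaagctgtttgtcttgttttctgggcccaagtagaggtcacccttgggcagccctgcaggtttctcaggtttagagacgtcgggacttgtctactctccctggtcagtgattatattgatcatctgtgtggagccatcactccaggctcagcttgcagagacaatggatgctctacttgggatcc
Morrbid, chr2:128429302-128429601, minus strand: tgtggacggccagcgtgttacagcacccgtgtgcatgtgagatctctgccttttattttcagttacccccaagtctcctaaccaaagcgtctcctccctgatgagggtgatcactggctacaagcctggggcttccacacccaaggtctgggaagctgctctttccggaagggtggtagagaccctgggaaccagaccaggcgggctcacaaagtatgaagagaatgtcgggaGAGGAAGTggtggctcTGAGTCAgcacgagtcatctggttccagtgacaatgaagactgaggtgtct

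The member over the 4930471E19Rik start, nearest to Msrb3 at 145 kb, had a mean percentile rank of 95 over the 7 libraries. Ranks throughout are of the authors' -log10 p-value of the strongest peak in a region, within 1 library, among the same 43170 regions called in all 7 libraries, with 100 the strongest. The member at LOC115487176, 133 kb from Uaca, had a mean rank of 91.8, that at Gm12708, 141 kb from Jun, 90.7, and that at Gm19510, 139 kb from Trib1, 86.7. Morrbid is an lncRNA known for restraining the death factor gene Bcl2l11 in short-lived myeloid cells, and the member over its start had a mean rank of 71.3. The median member had a mean rank of 42.5. All but the Morrbid member had been picked for a high rank, so their lying above that median was fixed in advance. Members holding a whole window had mean ranks from 6.84 (at Gm46343) to 98.4 (at Gm26901).

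Deserts held fewer constitutive regions than gene-rich DNA. Of desert regions 71.1% were called in 1 library and 4.94% in all 7, whereas of regions within 100 kb of a gene 54.2% were called in 1 and 13.3% in all 7. At gene ends (within 1 kb of either end of a protein-coding gene) 37.3% were called in all 7. The share called in all 7 libraries and also shorter than 5000 bp was 13.3% inside genes and 15.2% at 0 to 10 kb from a gene. It was lower at each further step: 12% at 10 to 50 kb, 8.12% at 50 to 100 kb and 5.85% at 100 to 200 kb (913 regions). Farther out it was 4.14% at 200 to 500 kb (482), 3.43% at 500 to 1000 kb (85) and 2.66% beyond 1000 kb (16). These shares describe the calls that the rule used, so no test is given.

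**Figure D1:**
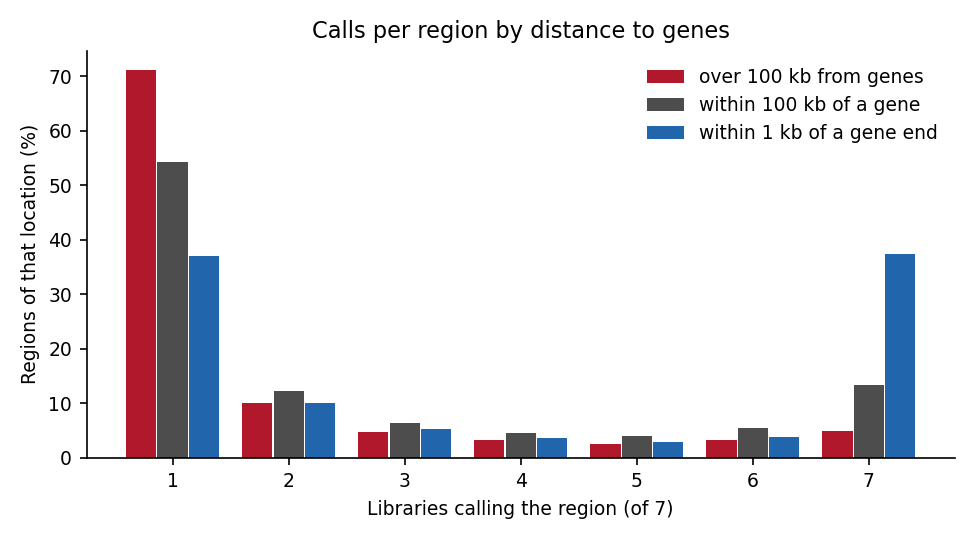
Share of regions (y axis, percent of the regions of that location) by the number of libraries that called them (x axis, 1 to 7) for 30352 desert regions, 314049 regions within 100 kb of a gene and the 25871 of the latter within 1 kb of a gene end. The bar at 7 libraries is 4.94% for deserts and 37.3% for gene ends.

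The thresholds fell inside a continuous range. The member closest to the distance limit, chr15:90123884-90124482 near Alg10b, had its midpoint 100128.5 bp from the gene and a mean rank of 6.77, and the nearest region just short of the limit, chr5:53376890-53379996 near Smim20, lay at 99902.5 bp with a mean rank of 85.3. The widest member was 4912 bp and the narrowest region left out for width was 5080 bp. Only 4 desert regions were left out for width, including 2 beside Klf14 at mean ranks of 70.6 and 79.9. Another 1018 desert regions were called in 6 of 7 libraries, and 830 of these were missing only from untreated replicate 1. Their median width was 662 bp, against 1022 bp for members. Without untreated replicate 1 the same rule gave 2326 members.

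In width and strength the members were closer to other intergenic constitutive regions than to gene ends. Their median width was 1022 bp (quartiles 755 and 1449), against 1083 bp for 12697 constitutive regions between genes within 100 kb and 1987 bp for 9433 at gene ends. The peak that a single library called had a median width of 668 bp in members, 660 bp between genes and 1369 bp at gene ends. Every library contributed exactly 1 peak in 966 members (64.6%), against 58.5% between genes and 40% at gene ends. Summits of the 7 libraries lay a median of 224 bp apart from first to last in a member, and within 100 bp in 440 members (29.4%). At gene ends the median was 135 bp. Wider members ranked higher (Pearson r = 0.553 between log width and mean rank across the 1496 members, which share their libraries), as regions did elsewhere (0.548 at gene ends and 0.571 between genes).

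The widest members were chr9:60996758-61001669 near Uaca (4912 bp, mean rank 95.1), inside the lncRNA Gm51680, chr3:21959451-21964310 near Tbl1xr1, a corepressor subunit (4860 bp, 50.5), and chr2:78048207-78052659 near Cwc22 (4453 bp, 85.2). The narrowest were 150 bp long at chr5:62045099-62045248 (mean rank 3.6) and 150 and 151 bp long for a neighbouring pair near Unc5d, described below.

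The members' median mean rank was 42.5 (quartiles 24.5 and 61.1), against 39 between genes and 77.6 at gene ends, and 39 members (2.61%) had a mean rank over 90. By library the members' median rank was 40.5 in untreated replicate 1, 40.6 in untreated replicate 2, 47.9 in RANKL replicate 1, 42.3 in RANKL replicate 2, 46.5 in RANKL+I-BET replicate 1, 43.9 in RANKL+I-BET replicate 2 and 42.7 in the I-BET library. Both RANKL libraries and both RANKL+I-BET libraries thus lay above both untreated libraries, with replicate 1 of each the highest. The I-BET library, without RANKL, also lay above both untreated libraries, and above RANKL replicate 2. For constitutive regions between genes within 100 kb the same medians ran only from 39.4 to 40.5. The authors' fold over background for members had a median of 5.08 in untreated replicate 1 and of 9.46 to 15.1 in the other 6 libraries. A deposited -log10 q of at least 5 was reached by 60.4% of members in untreated replicate 1, 83.3% in the I-BET library and 93% to 99.9% in the other 5.

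**Figure D2:**
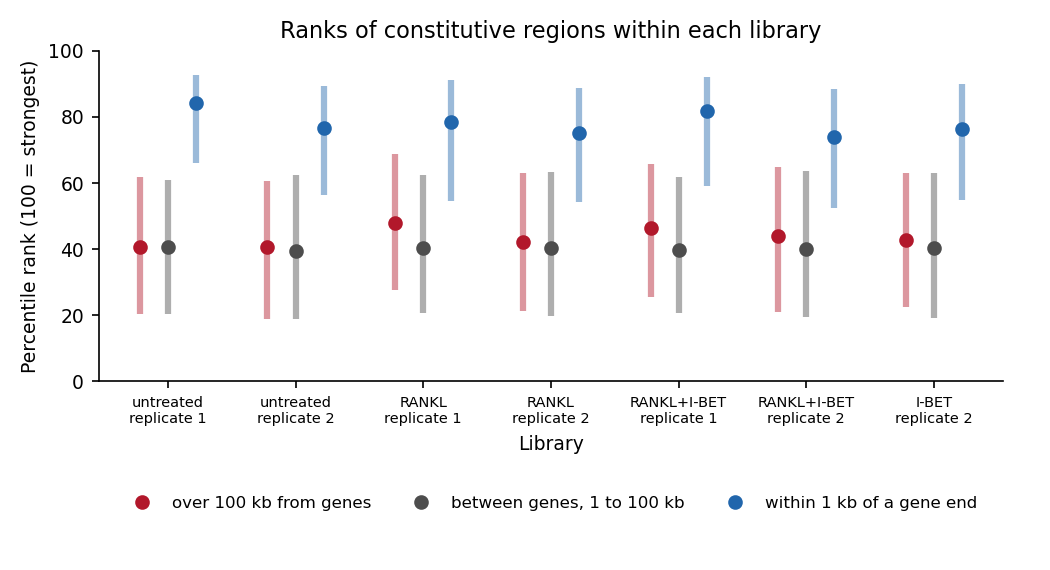
Percentile rank within each library (y axis, 100 strongest) of members (over 100 kb from genes), constitutive regions between genes at 1 to 100 kb and constitutive regions at gene ends, by library (x axis). Points are medians over regions and bars run from the lower to the upper quartile; the members' median is lowest in untreated replicate 1 (40.5) and highest in RANKL replicate 1 (47.9).

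The members clustered. Of the 1496, 1030 (68.9%) had another member within 50 kb between midpoints, the median gap to the nearest other member was 14.8 kb, and 466 stood alone. Counting error alone gives an exact Clopper-Pearson 95% interval of 66.4% to 71.2% for that share, although neighbours are not independent. For comparison, 57.1% of the 1807 desert regions called in 5 or 6 libraries had another such region within 50 kb, with a median gap of 33.9 kb, as did 92.2% of the 21573 called in 1 library (4.42 kb), and 82.3% of the 12697 constitutive regions between genes within 100 kb did (8.13 kb). The members' share thus lay above the first of these sets and below the others, and larger sets have more regions to lie near. Joining members within 50 kb gave 267 clusters of 2 or more, of which 72 held 5 or more (520 members) and 11 held 10 or more (139 members).

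Most deserts had no member at all. Protein-coding genes left 1689 gaps over 200 kb, and 486 of them (28.8%) held a member. Those with a member had a median length of 596 kb and those without 375 kb, yet of 296 gaps over 1 Mb 158 had none. As few as 78 deserts held 748 of the members. The longest empty deserts were Pcdh20 to Pcdh9 (4542 kb, with 24 regions called in fewer libraries), Tenm3 to Aga (3989 kb) and Slc39a10 to Tmeff2 (3975 kb), and Pcdh20, Pcdh9 and Tenm3 encode adhesion molecules of neurons. The fullest were Nmbr to Cited2 (24 members in 2952 kb), Eea1 to Btg1 (23 in 571 kb), Myc to Gsdmc (22 in 1786 kb), Zeb2 to Acvr2a (20 in 3697 kb), Klf4 to Actl7b (19 in 1208 kb) and Plk2 to Actbl2 (19 in 854 kb).

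By chromosome, desert DNA carried 1.9 members per Mb over 786 Mb, against 21.5 constitutive regions under 5000 bp per Mb over the other 1905 Mb. Chromosome 10 had the densest deserts, with 174 members at 5.14 per Mb, and 11.9% of its desert regions were members. Chromosome 13 followed (3.61 per Mb), then 2 (3.44) and 16 (3.3), whereas chromosome 7 had 0.764, X 0.62 and Y 0.0846 (4 members). On X and Y the nearer DNA was also sparse in constitutive regions (5.84 and 0.0691 per Mb). Members still made up 11.4% of the 317 desert regions between genes on X and 19% of the 21 on Y.

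Of the 11 clusters of 10 or more members, 8 are described, each named by the genes on both sides; the other 3 have 10 members each, as many as the last one described. One cluster of 18 members covered 215 kb between Eea1, an early endosome tether, and Btg1, an antiproliferative gene of leukocytes (chr10:96163204-96378240), with mean ranks of single members from 14.7 to 86.8. Its mean rank by library was 49.8 and 59.8 in untreated replicates 1 and 2, 55.7 and 63.6 in RANKL, 52.4 and 64.6 in RANKL+I-BET and 59.4 in I-BET. Within each pair replicate 2 was higher, and the groups overlapped.

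Another 18 members covered 184 kb between Bcl2l11, which encodes the death factor Bim, and Spdye4c (chr2:128287109-128470959), and 15 of them lay inside the lncRNAs Morrbid and Gm36154. The cluster's mean rank was 47.8 and 51 in untreated cells, 45 and 54.4 with RANKL, 48.2 and 51.3 with RANKL+I-BET and 46.6 with I-BET, so the groups overlapped.

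Between Serp2 and Lacc1, the latter a macrophage metabolic enzyme, 13 members covered 135 kb. Their mean rank was 34.5 and 41.4 in untreated cells, 51.7 and 54.2 with RANKL, 47.1 and 53.1 with RANKL+I-BET and 40.4 with I-BET. Here the RANKL and RANKL+I-BET libraries all lay above both untreated libraries and the I-BET library, which held for none of the other clusters described. Of the other clusters, the 13 members between Trib1, a pseudokinase that controls C/EBP levels in myeloid cells, and 4933412E24Rik had 45.4 and 60.3 in untreated, 62.7 and 62.2 with RANKL and 59.6 and 66 with RANKL+I-BET. RANKL lay above untreated in both libraries, and RANKL+I-BET replicate 1 lay just below untreated replicate 2.

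The 11 members between Irf2bp2 and Tomm20 had mean ranks of 47.9 and 54.2 in untreated cells, 44.2 and 48 with RANKL, 43.1 and 47.9 with RANKL+I-BET and 52.1 with I-BET. The 11 between Klf4 and Actl7b had 57.3 and 64.6 in untreated cells and 57.8 and 61.1 with RANKL, without separation. The 15 between Enc1 and Arhgef28 likewise overlapped across groups, from 42.4 to 54.8. The 10 between the adhesion receptor genes Adgrl2 and Adgrl4, all inside the lncRNAs A630039O03Rik and Gm30382, ran the other way by replicate: 53.6, 64.9 and 59.2 in the replicate 1 libraries and 43, 46.3 and 50.5 in replicate 2 of the same groups.

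**Figure D3:**
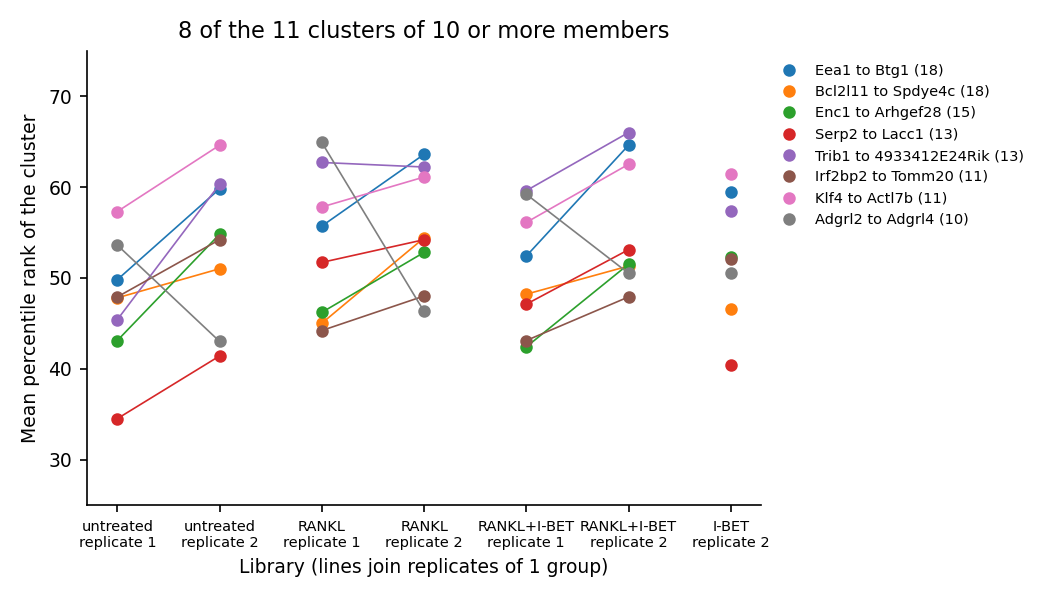
Mean percentile rank of the members of each of 8 clusters of 10 or more members (y axis) in each library (x axis); colours are clusters, named by the genes on both sides with the number of members, and lines join replicates of a group. The Serp2 to Lacc1 cluster lies at 34.5 to 41.4 in the untreated libraries and at 51.7 to 54.2 with RANKL, and the Adgrl2 to Adgrl4 cluster is higher in every replicate 1 library.

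Members were assigned to 609 nearest protein-coding genes, at a median distance of 170 kb (quartiles 127 and 264, largest 2042 kb). For 328 genes there was 1 member, and 85 genes with 5 or more took 670 members. Cited2, a transcriptional coregulator, had 23 members on 1 side, from 110 to 1224 kb away, and 22.5% of all desert regions nearest to it were members. Their mean rank was 41.5 and 49.5 in untreated cells, 52.9 and 53.6 with RANKL, 47.9 and 55.8 with RANKL+I-BET and 51.1 with I-BET; RANKL lay above untreated in both libraries and RANKL+I-BET overlapped.

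Myc, the growth regulator named in the study's title, had 20 members, 114 to 411 kb away on its right in the Myc to Gsdmc desert, and 8 of them lay inside the lncRNA Pvt1. The members' mean rank was 51.7 and 56.6 in untreated cells, 58.4 and 62.9 with RANKL, 56 and 64.9 with RANKL+I-BET and 50.7 with I-BET. RANKL again lay above untreated in both libraries. Single members there ranked from 14 to 91.8 on average, and 10.7% of the 187 desert regions nearest to Myc were members.

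Klf4, a factor of monocyte differentiation, had 18 members within 119 to 582 kb, with mean ranks by library between 48.1 and 52.8 in all 7 libraries. Zeb2, a repressor that macrophages need, had 12, of which the farthest lay 1326 kb away, with mean ranks of 48 to 55.3. Jarid2, a Polycomb subunit, had 11, and 41.9, 41.3, 29.2, 47.6, 35.1, 41.3 and 36.2 were their mean ranks in untreated 1 and 2, RANKL 1 and 2, RANKL+I-BET 1 and 2 and I-BET. Of the other genes among the 15 with most members, Gm826 had 14, Adgrl2, Eea1 and Usp25 13 each, Klf6, Mettl15 and Serp2 12 each, and Atp2b1, Btg1 and Enc1 11 each. Near Serp2 30.8% and near Btg1 28.9% of desert regions were members.

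**Figure D4:**
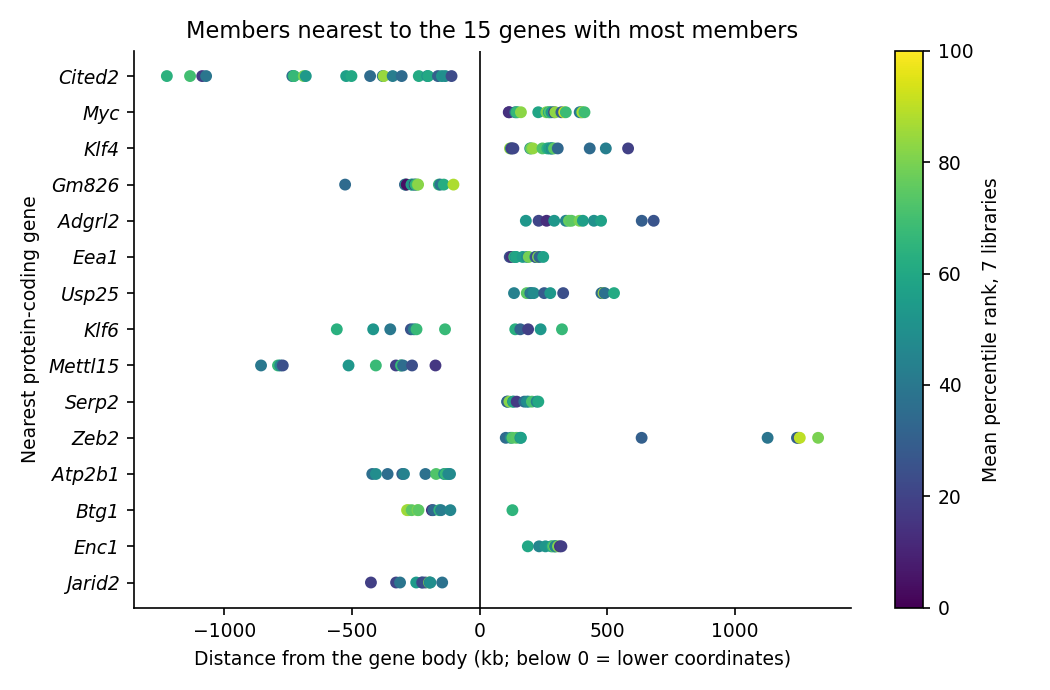
Each point is a member, placed by its distance from the body of its nearest gene (x axis, kb, negative at lower chromosome positions) for the 15 genes with most members (y axis), coloured by mean percentile rank over the 7 libraries. Members of Myc all lie to the right at 114 to 411 kb, those of Cited2 to the left at up to 1224 kb.

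Lists of genes, chosen with earlier results of these data known, showed which kinds of genes had members as their nearest neighbours. Regulators of macrophages and other myeloid cells (42 genes) were nearest to 70 members (4.68%), against 1.89% of the 28852 desert regions called in fewer libraries and 1.27% of constitutive regions between genes within 100 kb. Only 10 of the 42 genes had a member, led by Klf4 with 18 and Zeb2 with 12. Besides Klf4 and Zeb2 these were Id2 and Runx1 with 9 each, Mef2c with 7, Zfp36l2 with 5, Ets2 with 4, and Cebpb, Maf and Zfp36l1 with 2 each. Runx1, a hematopoietic factor, had members at mean ranks of 2.77 to 79.4. Zfp36l2, which encodes an RNA-decay protein, had 5 members whose mean rank was higher without RANKL: 61.7 and 64.7 in untreated cells, 51.6 and 54.2 with RANKL, 51.4 and 54.4 with RANKL+I-BET and 57.8 with I-BET.

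Genes of AP-1, the early response and feedback on ERK signalling (29 genes) were nearest to 49 members (3.28%, against 1.21% of desert regions called in fewer libraries and 1.02% of the constitutive regions between genes). Apart from Myc they were Dusp4 with 10, Jun with 9, Dusp6 with 7, and Dusp10, Spred1 and Spry2 with 1 each. Dusp4 and Dusp6 are phosphatases that switch off ERK. The 9 members of Jun lay 105 to 198 kb away, with a mean rank of 60 and 55.5 in untreated cells, 63.6 and 49.3 with RANKL, 69.7 and 52.2 with RANKL+I-BET and 55.1 with I-BET, and the groups overlapped.

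Genes of NF-kB signalling, cytokines and their receptors (39 genes) were nearest to 24 members (1.6%, against 0.523% and 0.914%). The prostaglandin receptor gene Ptger4 had 9, the chemokine receptor gene Cxcr4 8, Nfkbiz, which encodes a nuclear NF-kB cofactor, 5, and Tnfaip3, an NF-kB inhibitor, 2. The Cxcr4 members were steady, with mean ranks of 62 to 68 in all 7 libraries. The 2 Tnfaip3 members had mean ranks of 62 and 54.9 in untreated cells and 57.8 with I-BET. Their mean ranks were lower with RANKL (43.9 and 43.8) and with RANKL+I-BET (44.3 and 51.8).

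Osteoclast genes (28 genes) were nearest to 7 members (0.468%, against 0.0728% and 0.512%). These were Prdm1, a repressor that removes brakes on osteoclast genes, with 5, and Tnfrsf11b, the gene of the RANKL decoy receptor osteoprotegerin, with 2. The 2 members of Tnfrsf11b ranked 64.3, 57.8 and 52.3 in the replicate 1 libraries of untreated, RANKL and RANKL+I-BET, and 7.37, 18.5, 20.9 and 17.2 in the replicate 2 libraries of untreated, RANKL, RANKL+I-BET and I-BET. The separation there was by replicate number and not by treatment.

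Developmental transcription factors and signals (99 genes, Zeb2 and Id2 among them as in the myeloid list) were nearest to 72 members (4.81%), against 6.25% of desert regions called in fewer libraries and 0.851% of constitutive regions between genes within 100 kb. The members' share lay below the first and above the second. Genes of synapses, cell adhesion and ion channels (318 genes) took 45 members (3.01%, against 4.92% and 1.01%). That list was built from symbol prefixes, and the gene with most of these members was Kcnrg with 6, which the prefix caught although it does not encode a channel. Olfactory, vomeronasal and taste receptor genes (1517 genes) took 6 (0.401%, against 0.329% and 0.543%). The nearest gene is a position only and need not be a target.

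Many members lay in long non-coding genes. A midpoint lay inside an lncRNA gene in 407 members (27.2%), against 18.2% of desert regions called in fewer libraries and 19.4% of constitutive regions between genes within 100 kb. Within 1 kb of an lncRNA end lay 118 members (7.89%), against 3.33% and 8.12%. A930011G23Rik held 13, Morrbid 12, Gm30382 and Pvt1 8 each, and Gm51680 and Lncpint 7 each. Members inside lncRNA genes had a median mean rank of 43.6 and those outside 42.1.

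The strongest members stood apart. Only 6 had a fold of at least 100 in every library (25 among all regions called in all 7), and the next had a lowest fold of 53.4, whereas the median of the lowest fold was 4.79. The highest was chr4:80002137-80005400, 830 kb from Tyrp1, with folds of 2816 and 3117 in untreated cells, 2275 and 3217 with RANKL, 2162 and 1343 with RANKL+I-BET and 2864 with I-BET. The other 5 were chr5:60042523-60043295 (1766 kb from G6pd2, folds 367 to 803), chr18:3638673-3639343 (near Bambi, 172 to 573), chr6:9889708-9890364 (near Nxph1, 146 to 403), chr3:6048983-6050334 (near Pex2, 147 to 479) and chr5:84618145-84619916 (near Gm42163, 132 to 387). All 6 had their lowest fold in RANKL+I-BET replicate 2. In that library the largest fold was also low at gene ends (949, against 1939 to 2682 in the other libraries). The same held between genes within 100 kb (1212, against 1999 to 3080). All 6 members had a mean rank of 100 after rounding. Next came members near Neto1 (98.8), Pcmtd1 (98.4, over the start of the lncRNA Gm26901), Galc (98.3) and Zfat (97.4).

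The members farthest from genes were not the weakest. The one at chr14:82065042-82065881, 2042 kb from Olfm4, ranked 76.8 and 86.1 in untreated cells, 94.7 and 85.2 with RANKL, 90.8 and 88.5 with RANKL+I-BET and 88.3 with I-BET. Between Pabpc4l and Pcdh18 were 2 members, 1633 and 1642 kb from the nearest gene, with mean ranks of 60.5 and 49.5. The member 1412 kb from Cntnap5b had a mean rank of 37.

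Several members differed by replicate number far more than by treatment. The pair near Unc5d (chr8:29965218-29965368 and chr8:29965498-29965647) ranked 93.5 to 95.4 in the 3 replicate 1 libraries and 2.32 to 22.4 in the 4 replicate 2 libraries, with folds of 52.2 to 60.4 against 3.31 to 9.16. Near Plod2, chr9:93175516-93176153 had folds of 243, 164 and 175 in replicate 1 of untreated, RANKL and RANKL+I-BET, and 6.75, 11.2, 13.7 and 8.99 in replicate 2 of untreated, RANKL, RANKL+I-BET and I-BET. Its neighbour chr9:93174060-93174957 and chr17:93680383-93681114 near Adcyap1 did the same. Over all members, 248 (16.6%) ranked higher in all 3 replicate 1 libraries than in all 4 replicate 2 libraries, against 15.5% of all 43170 regions, and 151 (10.1%) ranked lower, against 14.4%. What the number stands for is not stated, and the treatment comparisons are also given within each number.

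**Figure D5:**
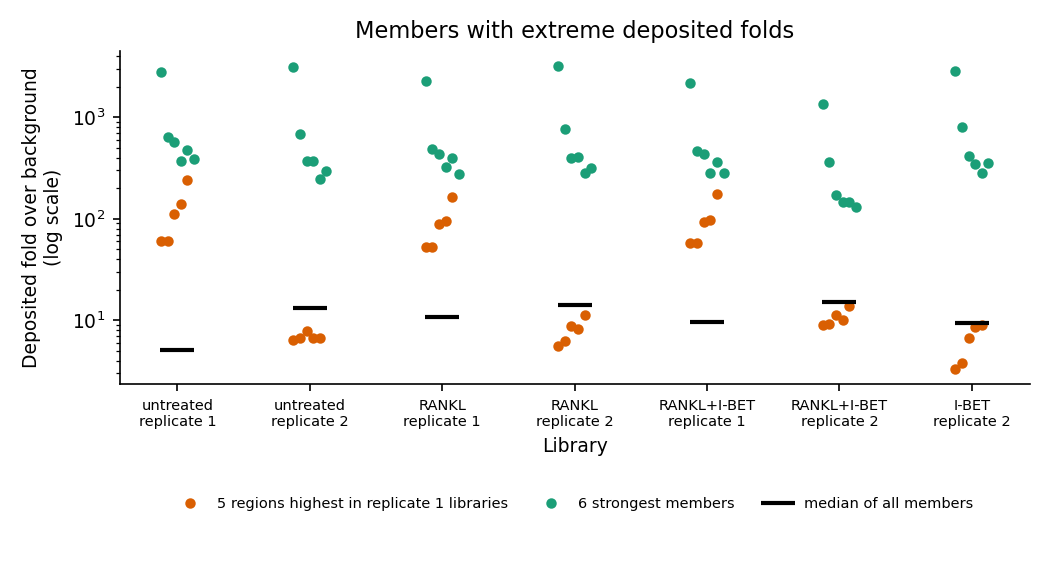
Deposited fold over background (y axis, log scale) in each library (x axis) for the 5 members with the largest gap between replicate 1 and replicate 2 libraries, the 6 strongest members, and the median of all 1496 members (black bars). The orange points lie above 50 in replicate 1 libraries and below 14 in replicate 2 libraries, while the green points stay above 130 throughout.

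The first comparison asks how these sites, open before treatment, rank after 4 h of RANKL. Members ranked higher on balance: the median rank difference, RANKL minus untreated, was 3.77 (quartiles -4.27 and 12.1), against -0.06 between genes within 100 kb and -2.13 at gene ends. Both RANKL libraries ranked above both untreated libraries in 368 members (24.6%), against 13.7% of all 43170 regions, and below in 140 (9.36%), against 15.9%. In the other 988 the groups overlapped. Ranks are relative, so a rise of some regions requires a fall of others. Leaving out any 1 of the 4 libraries left members above the background for higher ranks, at 36.2% to 46.6% of members against 27.9% to 35.3% of all regions, and below it for lower ranks. Within replicate number 1 the median difference was 5.94 (936 members higher, 62.6%, against 47.6% of all 43170 regions). Within number 2 it was 1.23 (823 higher, 55%, against 48.2% of all regions).

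In the fit without replicate number, no single member passed. With limma on normal scores of the ranks, fitted over all 43170 regions and 7 libraries with Benjamini-Hochberg adjustment, 0 members and 0% of all regions had an adjusted p under 0.05. At an unadjusted p under 0.05 there were 89 members (5.95%) and 1404 regions in all (3.25%). The smallest adjusted p of a member was 0.989.

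The largest differences without overlap are given as a description. The member chr2:159133856-159134639, 276 kb from the helicase gene Dhx35, ranked 20.3 and 4.48 in untreated cells, 67.4 and 64 with RANKL, 41.9 and 43.6 with RANKL+I-BET and 5.1 with I-BET. It was high only where RANKL had been given and lay lower with the inhibitor added. Its normal score differed by 1.67 (SE 0.36, limma adjusted p = 0.989). The member chr14:76874742-76875549, 147 kb from Lacc1, ranked 14.6 and 17.3 in untreated cells, 79 and 57.5 with RANKL, 63.1 and 42.2 with RANKL+I-BET and 34.9 with I-BET. That near Rapgef2, a Rap1 activator (chr3:78909121-78909788), ranked 14.6 and 36.9 untreated, 66.2 and 72.4 with RANKL, 49.8 and 64.9 with RANKL+I-BET and 5.1 with I-BET.

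In the other direction, the member chr19:6679461-6680548 near the urate transporter gene Slc22a12 ranked 66.2 and 23.9 in untreated cells and 5.13 and 14 with RANKL. The member chr5:43093707-43094927 near Gm46911 ranked 71 and 25.5 untreated and 13.5 and 14 with RANKL. A member inside Pvt1, chr15:62106353-62106983, 116 kb from Myc, ranked 51.3 and 12.2 untreated, 0.518 and 1.37 with RANKL, 7.13 and 2.67 with RANKL+I-BET and 22.6 with I-BET. In all 3 the separation was wide only against untreated replicate 1, and each had an adjusted p of 0.989 (limma). The folds of the Pvt1 member were low in all 7 libraries, from 2.54 to 6.49.

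The second comparison asks what the BET inhibitor changed in cells given RANKL. The members' median rank hardly differed: the median rank difference, RANKL+I-BET minus RANKL, was -0.69, with 89 members (5.95%) higher without overlap, against 7.95% of all regions, and 138 (9.22%) lower, against 7.85%. Between genes within 100 kb these shares were 8.14% and 8.84%. The median was -2.42 within number 1 and 0.83 within number 2, so the direction differed between the pairs. Without RANKL replicate 1, 36% of members were higher and 25.1% lower (30.7% of all regions each way), the opposite order. By limma 0 members and 0% of all regions passed, and at an unadjusted p under 0.05 there were 3 members and 33 regions in all.

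Among members without overlap, chr4:95250040-95250730, 198 kb from Jun, ranked 16.4 and 12.6 with RANKL and 48.3 and 19.2 with RANKL+I-BET. That near Ado, chr10:67695468-67696592, ranked 23.5 and 22.9 with RANKL and 44.7 and 39.2 with the inhibitor added, and that near Ptger4, chr15:5415942-5416720, 28.7 and 15.5 against 47.4 and 33.5. Lower with the inhibitor were the Dhx35 member given above, one near the mitochondrial transhydrogenase gene Nnt, chr13:119177627-119178532 (51.5 and 53.5 with RANKL, 29.9 and 21.8 with RANKL+I-BET), and one near Eef2kmt, chr16:5431372-5432278 (22.2 and 27.3 against 3.91 and 12.9). Every one of these 6 had an adjusted p of 1 (limma).

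The third comparison sets RANKL with I-BET against untreated cells and shares the untreated libraries with the first and the RANKL+I-BET libraries with the second. The median rank difference was 2.8, with 299 members (20%) higher without overlap, against 12% of all regions, and 147 (9.83%) lower, against 14.7%. Within number 1 it was 3.48 and within number 2 it was 1.62. With any 1 of the 4 libraries left out, 37.7% to 45.1% of members were higher, against 26.1% to 34.6% of all regions. By limma 0 members and 0% of all regions passed; at an unadjusted p under 0.05 there were 55 members (3.68%) and 969 regions in all (2.24%).

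The largest differences upward without overlap were at chr5:42976874-42977722 near Gm46911 (20.3 and 31.5 untreated, 75.8 and 56.4 with RANKL+I-BET), chr10:17221087-17222221, 502 kb from Cited2 (8.78 and 57.9 against 68.4 and 77.2) and chr8:34592196-34593291, 215 kb from Dusp4 and inside the lncRNA B930018H19Rik (14.6 and 73.1 against 73.3 and 90.8). At the last, untreated replicate 2 nearly reached RANKL+I-BET replicate 1. The untreated replicate 1 ranks of 8.78 and 14.6 stood for low folds of 3.1 and 3.38, against a median of 5.08 over all members. Tied regions share 1 averaged rank. The I-BET library, without RANKL, ranked these members at 40.2 (Gm46911), 69.8 (Cited2) and 68.5 (Dusp4). At the Cited2 member it thus lay above RANKL+I-BET replicate 1. The largest downward were at the Pvt1 member given above, at chr10:8072226-8073113 near Tab2, an adaptor of NF-kB signalling (30.2 and 58.6 untreated, 15.7 and 19.6 with RANKL+I-BET), and at chr7:145046697-145048715, 108 kb from the cyclin gene Ccnd1 (45.6 and 69.6 against 20.8 and 41.4). Their adjusted p was 1 (limma). The I-BET library ranked the Ccnd1 member at 73.2 and the Tab2 member at 25.9, and no test of I-BET alone against another group was made, since it has 1 library.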

How the data were processed

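ATAC-seq peak lists of 7 libraries were analysed. The submitters' processing notes name MACS2, Bowtie2, cutadapt, SAMtools, Picard, FastQC and bedtools, and the build mm10; versions and settings are not given in the sources used here. The authors deposited a separate list for each library (peaks were not called on pooled samples), with a score, a fold (ratio of signal to background), a -log10 p-value, a -log10 q-value and a summit for each peak. The deposited score, fold and -log10 values compare peaks within 1 list only, so the treatment comparisons used ranks. Folds and -log10 q-values set side by side across libraries are a description and were not tested. Read depth is unknown, and the number of peaks is a weak stand-in. Untreated replicate 1 had more peaks (136739) than untreated replicate 2 (117175). Yet the members' median -log10 q was 7.28 in the former and 32 in the latter.

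Peaks of all lists were joined when they overlapped or touched (975394 peaks, 344401 regions), and a library called a region with at least 1 bp. Distances were taken from the midpoint to the gene bodies in a RefSeq table (GRCm38.p6, 21883 protein-coding genes). Strongest peaks were ranked among the 43170 regions called in all 7 libraries, converted to normal scores and tested with limma 3.58.1 in R 4.3.3 (4 groups, 3 residual degrees of freedom, trended and robust variance, Benjamini-Hochberg over all regions), after a test on simulated data. The simulated spread was smaller than that of these libraries and held no replicate effect. That test thus does not show how large a change the fit could find here. Python 3.11.15 did the rest. Named regions were the strongest, widest, narrowest and farthest members, those at each threshold, the largest clusters and deserts, the genes with most members, and, where no member passed, the 3 members with the largest difference without overlap in each direction. Strand is not in the gene table and no genome was used, so sequences come from RefSeq promoter windows. Alternatives were stricter peaks, lists of equal length, 50% cover, other distances, ranks by fold, a replicate block and leaving out libraries. The members and gene lists were chosen with earlier results of these data known.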

Additional observations from a re-analysis of the deposited data

Results flagged for a closer look

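At 4 of the members named in the comparisons, both RANKL+I-BET libraries differed from I-BET alone in the opposite direction to both RANKL libraries from both untreated libraries. Over all members 103 did so (6.89%), against 6.77% of the 43170 regions called in all 7 libraries. Near Slc22a12 (chr19:6679461-6680548) the mean rank was 35.5 lower with RANKL than untreated (a difference of -35.5, from 45 to 9.59). It was 22.6 higher with RANKL+I-BET than with I-BET (24.9 against 2.32). That member's RANKL+I-BET ranks were 42.9 in replicate 1 and 6.88 in replicate 2, and the I-BET library is numbered replicate 2. Near Ado (chr10:67695468-67696592) the differences were -13.5 and 26.4. Near Nnt (chr13:119177627-119178532) they were 27.3 and -9.05, and near Eef2kmt (chr16:5431372-5432278) 10.8 and -10.8. These differences between contrasts were not tested region by region beyond the limma interaction term over all 43170 regions, in which 0 members and 0 regions had an adjusted p under 0.05 (14 members and 449 regions at an unadjusted p under 0.05), and I-BET alone, on which that term rests, has 1 library.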

How the results depend on the processing

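The number of members followed the definition. It was 824 with a deposited -log10 q of at least 5, 634 when peaks had to cover 50% of a region, 3097 beyond 50 kb and 583 beyond 200 kb. Leaving out 1 library gave 1496 to 2326, the highest without untreated replicate 1 and the next 1561 without the I-BET library. The share with another member within 50 kb was 63.7% with the q limit, 51.7% with 50% cover, 73.8% beyond 50 kb, 60.4% beyond 200 kb, 58.8% at 25 kb, 75.7% at 100 kb and 68.9% to 71.5% when 1 library was left out. The median width was 1189 bp with the q limit and 872 to 1022 bp when 1 library was left out. The median rank was 38.6 with the q limit, 35.6 with 50% cover and 40.9 to 43 when 1 library was left out.

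Replicate numbers are shared by the groups, but no source says what they mark, so they were not taken as pairing the libraries. Deviations of libraries with the same number correlated at 0.42 to 0.614 over all regions, with 2 pairs per comparison. With a replicate block, 3 members were called in RANKL against untreated cells, near Klf4 (adjusted p = 0.023 by limma), Zeb2 (0.036) and Lacc1 (0.0408), among 36 regions (0.0834%), all higher with RANKL; in the other comparisons 0 were called. With ranks taken within each chromosome and a replicate block, an alternative chosen after seeing the data together with the leave-one-out counts of members without overlap, 2 members were called, and 0 without the block. No other alternative called a member in any comparison. Ranking by fold gave the same counts as the main ranking, also at an unadjusted p under 0.05 (limma), so it was no separate check.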
